A study of Capra hircus with 10 samples.

Results

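The smooth muscle and contractile genes described here are ACTA2, ACTG2, MYH11, TAGLN, CNN1, LMOD1, MYLK, DES, MYOCD and MYBPC1. They were found in the deposited table by symbol, and all 10 are among the 20587 protein-coding gene symbols in it. RNA was taken from 10 ovaries of Anhui white goats collected at a slaughterhouse, 5 in the luteal phase (when the corpus luteum secretes progesterone) and 5 in the follicular phase (follicles growing towards ovulation), and each ovary gave 1 ribosomal RNA-depleted, strand-specific library. The animals received no treatment that the labels name, and their age is not given in the sources used here. The labels do not say whether each ovary came from a separate goat, so the p-values below measure the spread between ovaries, part of which may be technical.

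Smooth muscle shortens when filaments of smooth muscle actin slide along filaments of smooth muscle myosin. Calcium entering the cell binds calmodulin, which switches on myosin light chain kinase, and a myosin phosphatase reverses this step. Most genes of the apparatus carry sites for the serum response factor and are switched on when this factor is joined by its partner myocardin. In the ovary these genes mark the muscle of arteries and veins, the contractile outer layer of the theca around follicles, and contractile fibres of the stroma.

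FPKM (fragments scaled for transcript length and for the library's mapped total) was the deposited unit, and FPKM of the protein-coding transcripts of a gene were summed. FPKM is scaled for length, so levels of different genes may be compared. The depth of each single library is unknown, since the sources used here give the reads of all libraries only together. Summed over all transcripts, FPKM ran from 452508 to 503276 in the luteal ovaries and from 492324 to 540124 in the follicular ones. Log2(FPKM + 0.1) of the luteal ovaries was compared with that of the follicular ovaries by a two-sided limma test, a negative value being lower in the luteal phase, and a change was called at a Benjamini-Hochberg adjusted p under 0.05 over 15359 genes. The tissue labels were checked with marker genes. STAR, which carries cholesterol into mitochondria for steroid synthesis, was at 2651 ± 507 FPKM in luteal ovaries and 16.6 ± 5.58 in follicular ovaries (SD, n = 5 each). INSL3, a hormone of theca cells, was at 30.4 ± 15.9 and 149 ± 24.3.

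All 10 of the smooth muscle and contractile genes passed the filter on low values (at least 0.1 FPKM in 5 ovaries), MYBPC1 only through its high follicular values, so it is set aside in the counts that follow and described on its own. The other 9 were each lower in the luteal phase at an adjusted p under 0.05. Among all genes tested 43.7% were called in either direction and 27.8% were called lower in the luteal phase. The median log2 fold change of the 9 genes was -0.95, while it was -0.14 over all genes. For 6 of the 9 every luteal phase ovary lay below every follicular phase ovary, which held for 17.2% of all genes (28.4% did not overlap in either direction). With the ovary medians aligned and on the TPM scale (each ovary rescaled to the same sum), 7 of the 9 were called, all lower. The luteal mean of the 9 genes was between 36.9% and 72.8% of the follicular mean. In bulk RNA of an ovary, fewer cells of a type and less RNA per cell cannot be told apart.

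**Figure D1:**
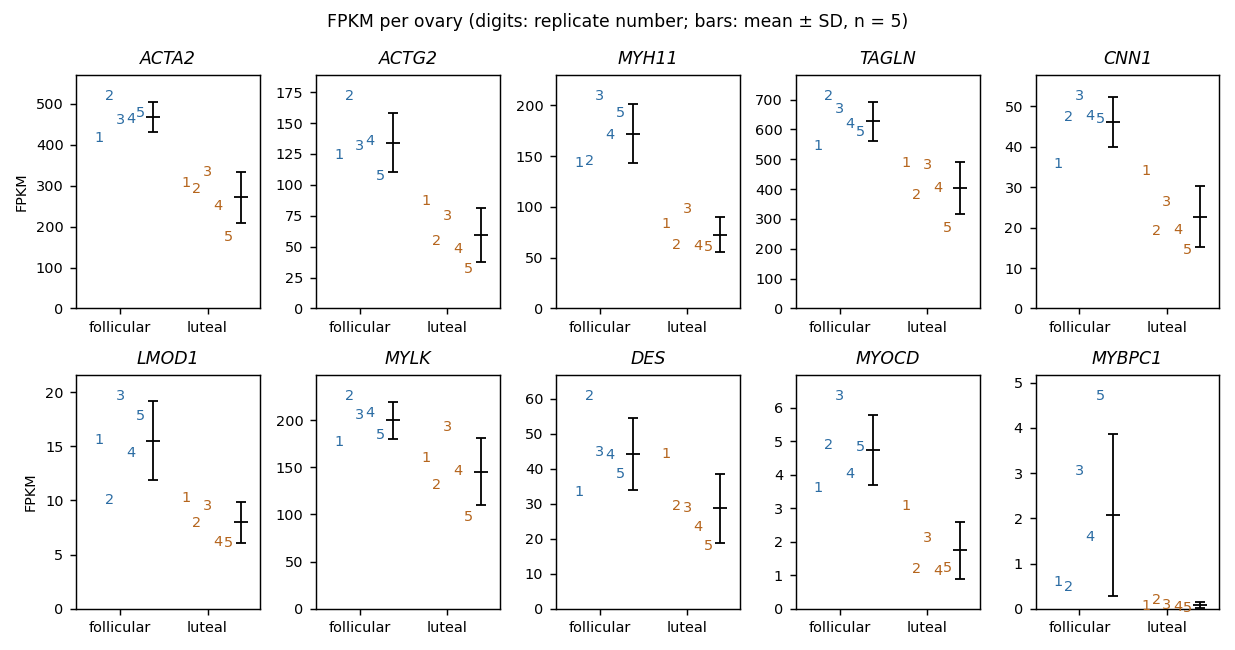
FPKM of the 10 genes in each ovary, 1 panel per gene with its own axis starting at 0; each digit is an ovary and gives its replicate number (blue, follicular phase; brown, luteal phase), and bars are the mean ± SD of 5 ovaries. The phases are separate for ACTA2, ACTG2, MYH11, TAGLN, CNN1, MYOCD and MYBPC1 and overlap for LMOD1, MYLK and DES, and luteal phase replicate 5 is at or near the bottom of every panel.

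In order of their mean level, the genes ran from TAGLN and ACTA2 (ranks 123 and 154 of all gene symbols by mean FPKM) through MYLK, MYH11, ACTG2, DES, CNN1 and LMOD1 to MYOCD and MYBPC1 (ranks 10216 and 12457). Within the follicular phase the ranges of MYLK and MYH11, of MYH11 and ACTG2, of CNN1 and DES, and of MYOCD and MYBPC1 overlapped. Within the luteal phase the ranges of each neighbouring pair from TAGLN down to CNN1 overlapped. Those of MYOCD (1.11 to 3.08) and MYBPC1 (0.0155 to 0.195) did not. Ranges take no account of both genes being measured in the same ovary, and MYOCD was above MYBPC1 in each of the 10 ovaries. The 10 genes together held 0.334 ± 0.0226% of the summed FPKM in follicular ovaries and 0.212 ± 0.0481% in luteal ovaries (SD, n = 5 each). ACTA2, TAGLN and MYLK alone made up 75.6% of this sum in follicular ovaries and 81.1% in luteal ovaries.

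ACTA2 (gene ID 102191486) encodes the smooth muscle alpha actin of vessel walls. In follicular phase replicates 1 to 5 its FPKM was 418, 520, 460, 464 and 477, and in luteal phase replicates 1 to 5 it was 308, 292, 335, 251 and 175. Every luteal phase ovary lay below every follicular phase ovary. The log2 fold change was -0.81 (standard error 0.16, limma adjusted p = 0.00177), and its 95% interval ran from -1.15 to -0.47. ACTG2 (gene ID 102178279), the gamma actin that prevails in visceral smooth muscle, was at 124, 172, 131, 136 and 107 in the follicular phase and at 87.1, 54.2, 74.6, 48.4 and 32.0 in the luteal phase. The phases did not overlap, and the lowest luteal phase ovary was again replicate 5. ACTG2 changed by -1.24 (standard error 0.23, limma adjusted p = 0.00167). Actin genes are close copies of each other, and how the quantification divided reads between them is not known, so the split between ACTA2 and ACTG2 is uncertain. The actins of skeletal and heart muscle, ACTA1 and ACTC1, were at or below 0.925 FPKM in every ovary.

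MYH11 (gene ID 102177493) encodes the heavy chain of smooth muscle myosin, the motor of the thick filament. It was at 143, 145, 209, 171 and 193 FPKM in follicular phase replicates 1 to 5 and at 83.0, 62.1, 97.6, 61.1 and 60.1 in luteal phase replicates 1 to 5. No luteal phase ovary reached the lowest follicular phase ovary, and the follicular mean was 2.37 times the luteal mean. The log2 fold change was -1.25 (standard error 0.16), and the limma adjusted p of 0.000129 was the smallest of the 10 genes.

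MYLK (gene ID 102190641), the kinase that phosphorylates the myosin light chain, changed least. Its FPKM was 177, 225, 205, 208 and 184 in the follicular phase and 160, 132, 193, 146 and 97.5 in the luteal phase. Luteal phase replicate 3 lay inside the follicular range, so the phases overlapped. MYLK changed by -0.49 (standard error 0.15, limma adjusted p = 0.0250). That call was lost once the ovary medians were aligned (-0.40, adjusted p = 0.0807), on the TPM scale (-0.39, adjusted p = 0.0519), without luteal phase replicate 2 (-0.46, adjusted p = 0.0523) and without follicular phase replicate 4 (-0.47, adjusted p = 0.0504).

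Among the 10 genes, TAGLN (transgelin, gene ID 102185937) had the highest RNA level of those whose proteins bind the thin filament. Its FPKM was 546, 713, 669, 617 and 590 in the follicular phase and 486, 382, 480, 404 and 271 in the luteal phase. The phases did not overlap, although luteal phase replicates 1 and 3 came close to follicular phase replicate 1. TAGLN changed by -0.66 (standard error 0.15, limma adjusted p = 0.00548). CNN1 (calponin, which restrains the actin-activated myosin motor, gene ID 102190599) was at 35.7, 47.4, 52.6, 47.7 and 47.0 in the follicular phase and at 34.0, 19.2, 26.4, 19.5 and 14.5 in the luteal phase. Its phases were separate, with luteal phase replicate 1 just under follicular phase replicate 1, and the log2 fold change was -1.07 (standard error 0.20, limma adjusted p = 0.00152). LMOD1 (leiomodin, which starts new actin filaments in smooth muscle, gene ID 102170047) was at 15.6, 10.1, 19.6, 14.4 and 17.8 in the follicular phase and at 10.3, 7.90, 9.49, 6.20 and 6.09 in the luteal phase. Only follicular phase replicate 2 lay within the luteal range. LMOD1 changed by -0.95 (standard error 0.20, limma adjusted p = 0.00282).

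DES (desmin, the intermediate filament of muscle cells, gene ID 102180712) was at 33.4, 60.7, 44.7, 43.9 and 38.3 FPKM in the follicular phase and at 44.3, 29.4, 28.9, 23.3 and 17.9 in the luteal phase. Luteal phase replicate 1 stood among the follicular phase ovaries, and the other luteal phase ovaries lay below all of them. DES changed by -0.65 (standard error 0.22, limma adjusted p = 0.0321). This call depended on the setting: it was lost with ovary medians aligned (-0.57, adjusted p = 0.0720), on the TPM scale (-0.56, adjusted p = 0.0519) and without luteal phase replicate 4 (adjusted p = 0.0753), luteal phase replicate 5 (0.0708), follicular phase replicate 2 (0.0665), follicular phase replicate 3 (0.0600) or follicular phase replicate 4 (0.0576). The change stayed negative in these fits, between -0.65 and -0.50.

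MYOCD (myocardin, gene ID 102183004) encodes the partner of the serum response factor that switches on smooth muscle genes. Its summed FPKM was 3.59, 4.88, 6.34, 4.02 and 4.82 in the follicular phase and 3.08, 1.20, 2.11, 1.11 and 1.22 in the luteal phase. All luteal phase ovaries lay below all follicular phase ovaries, with luteal phase replicate 1 nearest to them. MYOCD changed by -1.47 (standard error 0.27, limma adjusted p = 0.00138), and by -1.09 with a pseudocount of 1, where MYH11 (-1.24) and ACTG2 (-1.23) fell further.

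MYBPC1 (gene ID 102172972) encodes the slow form of myosin-binding protein C, best known from skeletal muscle, and had the lowest mean level of the 10, although its follicular range overlapped that of MYOCD. It was at 0.592, 0.479, 3.04, 1.58 and 4.70 FPKM in the follicular phase and at 0.0673, 0.195, 0.0873, 0.0410 and 0.0155 in the luteal phase. The phases did not overlap, and the follicular phase ovaries spread widely, with an SD that was 86.1% of the mean where the other 9 genes had between 7.84% and 23.5%. MYBPC1 passed the filter of 0.1 FPKM in 5 ovaries through the follicular phase, since only 1 luteal phase ovary reached 0.1, and a gene that passes in this way had to differ. The log2 fold change was -3.21 (standard error 0.55, limma adjusted p = 0.000928), and it was -1.32 with a pseudocount of 1 and -4.34 with a pseudocount of 0.01, so its size is set by the pseudocount.

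**Figure D2:**
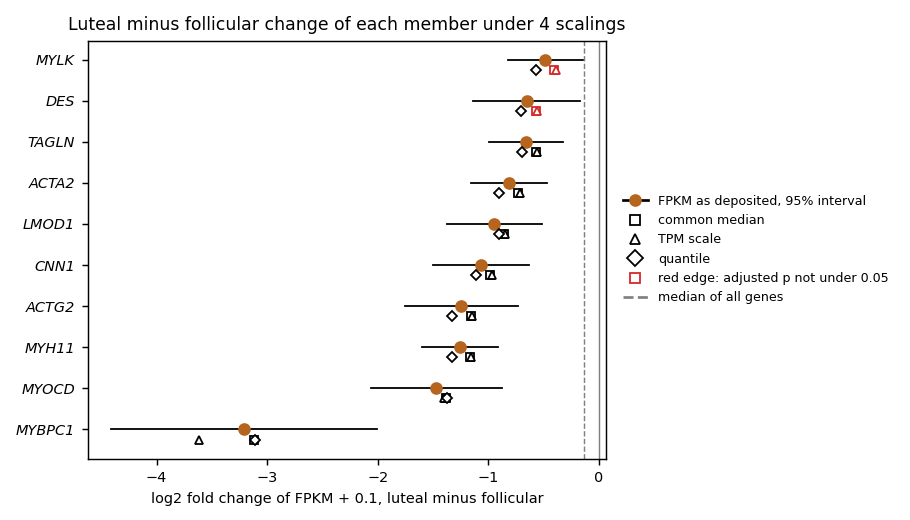
Luteal minus follicular log2 fold change of each gene: filled circles with 95% intervals for FPKM as deposited, open symbols for 3 other scalings, with a red edge where the adjusted p was not under 0.05; the dashed line is the median of all genes at -0.14. Every symbol lies below 0, and red edges appear for MYLK and DES on the median-aligned and TPM scales.

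Most of these genes rose and fell together among the ovaries of a phase. With log2(FPKM + 0.1) centred on its phase mean, Pearson's r over the 10 ovaries had a median of 0.739 among the 36 pairs of genes without MYBPC1 and was positive in 36 of 36, from 0.22 for LMOD1 with DES to 0.952 for MYLK with TAGLN. CNN1 followed the mean of the other genes most closely (r = 0.958) and MYBPC1 least (r = 0.259). These values are descriptions over 10 ovaries that share each library's scaling and tissue sampling, and carry no p-value.

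Luteal phase replicate 5 was the lowest of all 10 ovaries for 9 of the 10 genes, and luteal phase replicate 4 was the lowest for MYOCD. In the follicular phase replicate 1 was the lowest for 7 genes. The median deviation of the 10 genes from the phase mean was -0.56 on the log2 scale in luteal phase replicate 5, where the median of all genes deviated by 0.01. This ovary also had the lowest summed FPKM of the stroma markers in the luteal phase (3600 against up to 5994) and the highest of the pericyte markers (259) and endothelial markers (373). Their part in the low muscle values was not tested. Without luteal phase replicate 5, and with MYBPC1 set aside, 8 of 9 genes were still called lower in the luteal phase, and DES was not.

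**Figure D3:**
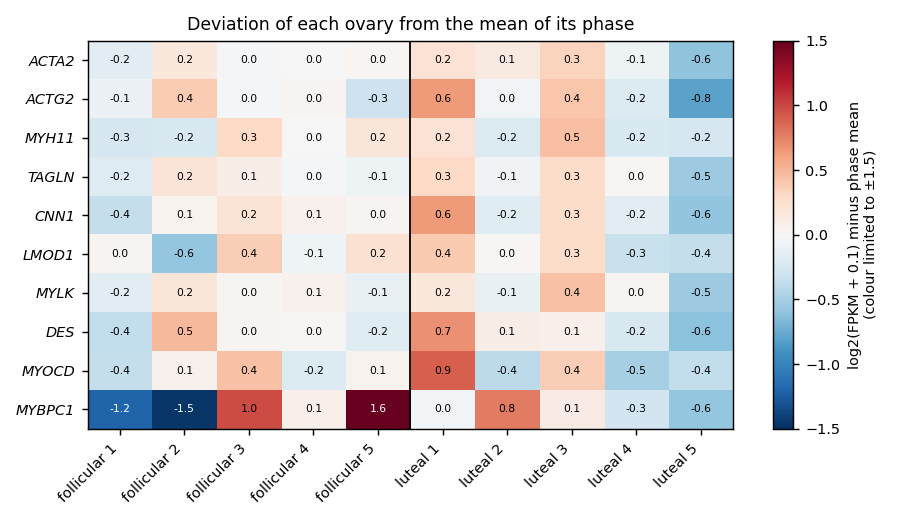
Deviation of log2(FPKM + 0.1) of each gene (rows) in each ovary (columns) from the mean of its phase, with red above and blue below the mean. Luteal phase replicates 1 and 3 are above the luteal mean for most genes and replicate 5 is below it for all 10, with a median of -0.56, while MYBPC1 follows its own course in the follicular phase.

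The table lists 26 protein-coding transcripts for the 10 genes, and 20 of them were above 0 in some ovary. Each of ACTA2, TAGLN, CNN1, LMOD1, MYLK and DES has a single transcript. In the fit over 32842 single transcripts of all kinds, 14 transcripts of the 10 genes were tested and 10 were called, all lower in the luteal phase, where 17.3% of all transcripts were called and 9.82% were called lower. MYLK and DES, whose gene and transcript values are the same, were not called among transcripts (limma adjusted p = 0.0617 and 0.0802).

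MYH11 has a pair of transcripts. XM_018040245.1 held 92.5 ± 1.94% of its FPKM in luteal ovaries and 90.6 ± 2.67% in follicular ovaries (SD, n = 5 each), and both transcripts were called lower in the luteal phase (XM_018040245.1 by -1.22, limma adjusted p = 0.000663; XM_018040246.1 by -1.55, adjusted p = 0.00769). For MYOCD, 4 transcripts shared the expression, and 3 of them were called lower. The transcript with the highest mean share over all ovaries, XM_005693583.3, held 34.4 ± 16.2% in luteal ovaries and 38.5 ± 11.5% in follicular ovaries, a difference of -4.12 percentage points that the spread between ovaries covers (two-sided exact permutation test, p = 0.698, adjusted over 2 genes 0.722). With each ovary left out in turn that difference ran from -7.71 to 2.47 points. XM_005693586.3, which held the larger share in the luteal phase, was at 37.9 ± 16.2% there and at 26.5 ± 7.36% in the follicular phase, a difference of 11.4 points that did not pass either (exact permutation p = 0.143, adjusted 0.286). For MYBPC1, XM_013964021.2 held between 97.9% and 100% in the 8 ovaries other than luteal phase replicate 2 and follicular phase replicate 3, where another transcript, XM_018048169.1, took 88.6% and 76.1%. The mean share of XM_013964021.2 did not differ detectably between the phases (82.3% and 80.2%, exact permutation p = 0.722). With each ovary left out in turn the difference ran from -17.2 to 19.8 points. As 1 ovary in each phase sets the mean, this test cannot decide whether the share differs.

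Several members have close relatives that are used by cells other than muscle, and they moved in different ways: 2 were called higher in the luteal phase, 3 lower like the smooth muscle genes, and 1 was not called, where 15.9% of all genes were called higher and 27.8% lower. MYH9, a heavy chain of non-muscle myosin, was at 107 ± 5.24 FPKM in luteal ovaries and 71.2 ± 2.05 in follicular ovaries (SD, n = 5 each), a rise of 0.58 (standard error 0.06, limma adjusted p = 2.24e-05). MYH10, another such heavy chain outside these counts, was at 24.9 ± 1.73 and 23.9 ± 2.48 and was not called (0.06, adjusted p = 0.563). TAGLN2, the transgelin of non-muscle cells, rose by 0.70 (standard error 0.11, adjusted p = 0.000402). ACTB, the cytoplasmic beta actin, was at 654 ± 24.3 and 645 ± 58.5 and was not called (0.03, adjusted p = 0.825). The remaining relatives were lower in the luteal phase: ACTG1, the cytoplasmic gamma actin, by -0.40 (adjusted p = 0.00517), CNN2 by -0.73 (adjusted p = 0.000930) and VIM, the intermediate filament of mesenchymal cells, by -0.54 (adjusted p = 0.00772). The calls for ACTG1 and VIM were lost after quantile normalization (adjusted p = 0.254 and 0.173).

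A ratio of 2 genes within an ovary does not depend on how that ovary was scaled, and 6 such ratios are given as a description with no test, because the pairs were chosen after the values had been seen. The log2 ratio of MYH11 to MYH9 was 0.97, 1.06, 1.51, 1.31 and 1.43 in follicular phase replicates 1 to 5 and -0.32, -0.82, -0.21, -0.70 and -0.85 in luteal phase replicates 1 to 5. The FPKM of MYH11 thus exceeded that of MYH9 in every follicular phase ovary and fell short of it in every luteal phase ovary, with means that differed by -1.84. As each of MYH11 and MYH9, and each of TAGLN and TAGLN2, separates the phases in the opposite direction, their ratios had to separate them too. TAGLN to TAGLN2 differed by -1.36 and ACTA2 to ACTB by -0.84, with no overlap, and ACTG2 to ACTG1 differed by -0.84, with overlapping ranges. CNN1 to CNN2 differed by -0.34 and DES to VIM by -0.12, both with wide overlap. With each ovary left out in turn, the CNN1 to CNN2 difference ran from -0.53 (luteal phase replicate 1 left out) to -0.21 (luteal phase replicate 5), and that of DES to VIM from -0.30 (luteal phase replicate 1) to 0.09 (follicular phase replicate 2).

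**Figure D4:**
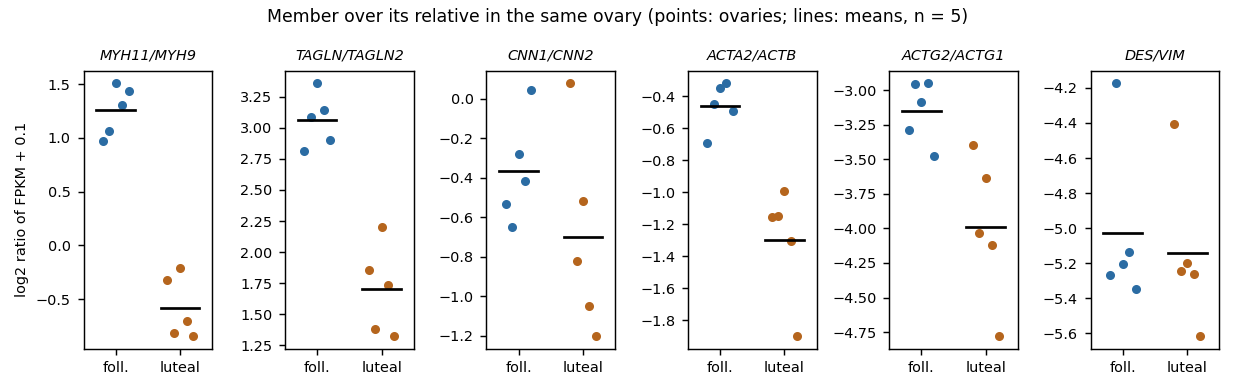
Log2 ratio of each smooth muscle gene to its relative in the same ovary, 1 panel per pair with its own axis; points are ovaries (blue, follicular phase; brown, luteal phase) and lines are means of 5. MYH11/MYH9, TAGLN/TAGLN2 and ACTA2/ACTB separate the phases fully, while ACTG2/ACTG1, CNN1/CNN2 and DES/VIM overlap.

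Beyond the 10 genes, 102 further genes of the contractile apparatus were taken from 5 lists, and 97 of them were tested. Of these, 54 were called, 37 lower and 17 higher in the luteal phase, which is 55.7% where 43.7% of all genes were called. Their median log2 fold change was -0.20, close to the -0.14 of all genes. The share of calls that were higher in the luteal phase was 31.5%, and it was 40.9% (26 lower, 18 higher) with ovary medians aligned and 45.5% (24 lower, 20 higher) on the TPM scale. Over all genes the same shares were 36.3%, 48.8% and 52.5%, so calls in both directions were not particular to the apparatus.

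In the thin filament list, 6 genes were called lower, 3 higher and 8 were not called, so that 52.9% were called, near the 43.7% of all genes. TPM2, a tropomyosin of smooth and slow muscle, was at 227, 283, 270, 256 and 204 FPKM in the follicular phase and at 188, 157, 148, 121 and 89.4 in the luteal phase. Its phases did not overlap, and it changed by -0.85 (standard error 0.18, limma adjusted p = 0.00283). SMTNL2, a smoothelin-like protein, was lower as well (-1.31, adjusted p = 0.00134; -0.84 with a pseudocount of 1). TAGLN2 and TMOD1, which caps the slow end of actin filaments, were higher (0.70 and 0.69, adjusted p = 0.000402 and 0.0127). CALD1, the gene of caldesmon, was at 177 ± 55.6 in luteal ovaries and 149 ± 11.3 in follicular ovaries and was not called (adjusted p = 0.402).

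Of the 18 tested genes for myosin and its regulation, 6 were called lower and 3 higher, so 9 of 18 were called, near the 43.7% of all genes. PPP1R12B, a targeting subunit of the myosin phosphatase, was lower (-0.79, adjusted p = 0.00714), as was the light chain gene MYL6B (-0.71, adjusted p = 0.0263), although the call of MYL6B was lost without luteal phase replicate 3 (adjusted p = 0.0583), without luteal phase replicate 4 (0.0632) and with ovary medians aligned (0.0528). MYH9 and RHOA, the small GTPase that inhibits the phosphatase through its kinases, were higher (0.58 and 0.40, adjusted p = 2.24e-05 and 0.000712). MYL9, the regulatory light chain of smooth muscle myosin, lies outside the naming rule and was picked after its values were seen. It was at 41.3 ± 4.49 in luteal ovaries and 57.6 ± 10.3 in follicular ovaries (-0.46, adjusted p = 0.0151), and its call was lost with ovary medians aligned (0.0539) and on the TPM scale (0.0511).

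In the list of 15 genes that holds the serum response factor with its partners and cofactors, 7 were called lower and 2 higher, or 60.0% called where 43.7% of all genes were. On the TPM scale these counts were 3 and 2, where 5494 of all 15359 genes were called. TGFB1I1, a cofactor of the factor, was lower by -0.77 (adjusted p = 0.00181) and CSRP1, a LIM protein of smooth muscle, by -0.68 (adjusted p = 0.00865). HEYL, a Notch target of vessel walls, was higher by 1.06 (adjusted p = 0.00127) and MKL2, a myocardin-related cofactor, by 0.41 (adjusted p = 0.00947). SRF itself was at 9.74 ± 1.57 in luteal ovaries and 11.8 ± 1.45 in follicular ovaries and did not pass (-0.28, adjusted p = 0.0795), although it did without luteal phase replicate 1 (0.0434), without follicular phase replicate 4 (0.0473) and with a replicate block (0.0282). MKL1 did not pass (-0.01, adjusted p = 0.975).

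In the list of dense plaque and scaffold genes, which anchor the filaments to the membrane, 10 were called lower, 5 higher and 10 were not called, or 60.0% called where 43.7% of all genes were (27.8% lower, 15.9% higher). SGCA, 1 of the 5 called higher, was at most 0.202 FPKM in luteal ovaries and 0.110 in follicular ovaries. It passed the filter of 0.1 FPKM mainly through the luteal phase. FLNA, the actin crosslinker filamin A, was at 144 ± 8.98 FPKM in follicular ovaries and 85.4 ± 13.4 in luteal ovaries (-0.76, adjusted p = 0.000210). SGCD, a sarcoglycan of smooth and striated muscle, was lower by -1.12 (adjusted p = 0.000160). The collagen and laminin receptors ITGA1 and ITGA7 were higher, by 1.44 (adjusted p = 1.44e-06) and 0.82 (adjusted p = 0.00344). For channels, calcium stores and receptors, 8 were called lower and 4 higher, or 54.5% called beside the same 43.7%. RYR2, a calcium release channel, was lower by -1.36 (adjusted p = 1.69e-05) and KCNMB1, the smooth muscle subunit of the large potassium channel, by -1.11 (adjusted p = 0.0102). PTGER3 and PTGFR, the receptors of prostaglandins E2 and F2 alpha, were higher by 4.55 (adjusted p = 2.74e-06; 2.94 with a pseudocount of 1) and 4.18 (adjusted p = 5.52e-07). PTGFR also stands in the luteal cell list, since luteal cells carry this receptor.

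**Figure D5:**
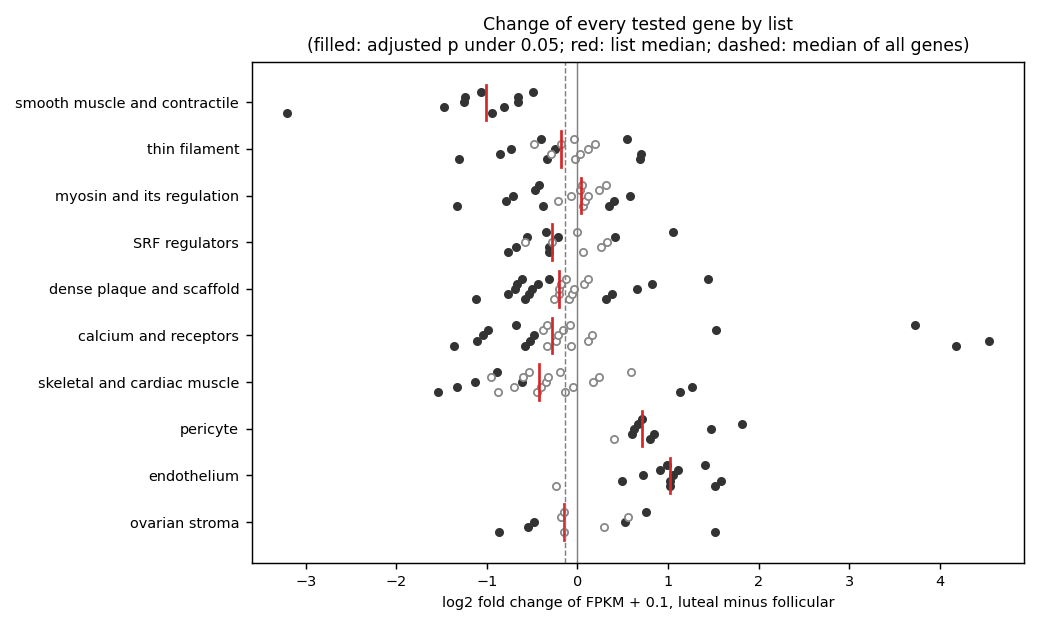
Luteal minus follicular log2 fold change of every tested gene in 10 lists; filled points have an adjusted p under 0.05, red lines are list medians and the dashed line is the median of all genes. The smooth muscle and contractile genes lie wholly below 0 (median -0.95 without MYBPC1, -1.01 as drawn with it), and the wider apparatus lies on both sides. The pericyte and endothelium genes lie to the right (medians 0.71 and 1.02), except CLDN5 of the endothelium at -0.24.

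Markers of other cells of the vessel wall went the opposite way. Of 9 pericyte genes 8 were called higher in the luteal phase and none lower, and of 12 endothelial genes 11 were called higher and none lower, where 15.9% of all genes were called higher. These counts were the same with ovary medians aligned, after quantile normalization, on the TPM scale and without luteal phase replicate 5. Luteal ovaries had a summed pericyte FPKM of 169 to 259 and follicular ovaries one of 95.1 to 137, and for the endothelial genes the sums were 287 to 373 and 166 to 198. HIGD1B, a marker of pericytes, rose by 1.82 (adjusted p = 7.36e-05) and NDUFA4L2 by 1.47 (adjusted p = 0.000277). RGS5 and PDGFRB, which pericytes share with vascular smooth muscle, were picked after their values were seen and rose by 0.84 (adjusted p = 0.00575) and 0.61 (adjusted p = 0.00368). In the endothelium KDR, the main receptor of VEGF, rose by 1.59 (adjusted p = 3.43e-05) and ESAM by 1.52 (adjusted p = 0.000128). NOTCH3 and CLDN5 were the genes of these lists that were not called (0.41 and -0.24, adjusted p = 0.136 and 0.0993), though NOTCH3 was with a replicate block (0.0228).

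Of 11 stroma genes, 54.5% were called, near the 43.7% of all genes: 3 were called lower (TCF21 by -0.86, adjusted p = 0.000413; MFAP4 by -0.55, adjusted p = 0.0224; and OGN), 3 were called higher (LUM by 1.51, adjusted p = 0.00352; COL3A1 by 0.75, adjusted p = 0.00488; and COL1A2), and 5 were not called, among them DCN (944 ± 182 and 1064 ± 141 FPKM, luteal and follicular) and PDGFRA (91.9 ± 15.6 and 102 ± 16.8). The call for MFAP4 was lost with ovary medians aligned (adjusted p = 0.0556), on the TPM scale (0.0592), without luteal phase replicate 2 (0.0521), luteal phase replicate 5 (0.0557) or follicular phase replicate 3 (0.0542).

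Striated muscle genes ranged from near the floor to a mean of 29.2 FPKM (TNNI3), and of 22 tested 5 were called lower and 2 higher, which is 31.8% where 43.7% of all genes were called. Among the low ones, MYH8, MYL1, MYLPF and TTN stayed at or below 0.183 FPKM in every ovary, and of these only TTN was tested. The list summed to between 44.5 and 84.5 FPKM in luteal ovaries and to between 77.3 and 104 in follicular ovaries, and most of it came from TNNI3 (21.2 ± 9.87 and 37.1 ± 5.90) and MYBPC2 (16.1 ± 9.68 and 28.2 ± 10.4), a relative of MYBPC1 that was not called (-0.95, adjusted p = 0.0673) except when luteal phase replicate 1 (0.0472) or replicate 2 (0.0189) was left out or with a replicate block (0.0116). MYBPC3, the heart form, was lower by -1.33 (adjusted p = 0.00560), and so was TNNI1, a slow troponin, by -1.13 (adjusted p = 0.00248). PYGM, the muscle glycogen phosphorylase, and TNNI2, a fast troponin, were higher by 1.26 (adjusted p = 0.000254) and 1.13 (adjusted p = 0.00711). With a pseudocount of 1 these low genes moved less, MYBPC3 by -0.74, TNNI1 by -0.72 and TNNI2 by 0.75.

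The genes whose course among the ovaries was most like that of the 10 genes were sought among 12571 others with a mean of at least 1 FPKM, by Pearson's r over 10 ovaries between the phase-centred log2 values and the mean of the standardised values of the 10. The highest were CRB1 (r = 0.963), PDP1 (0.957), EBPL (0.922), EMP3 (0.912), LOC108634298 (0.907), CEP89 (0.904), HFM1 (0.901), FIBIN (0.900), LOC102187823 (0.899) and RBMS3 (0.898). With so many candidates and 10 ovaries such values carry no p. Of these, 7 were lower in the luteal phase at an adjusted p under 0.05, where 27.8% of all genes were, led in size by CRB1 (-1.51, adjusted p = 0.0247; -0.96 with a pseudocount of 1) and HFM1 (-1.44, adjusted p = 0.000173). HFM1 stayed between -1.46 and -1.26 in the other fits of all ovaries, so with a pseudocount of 1 it changed more than CRB1. EBPL, LOC108634298 and CEP89 were not called, at -0.55, -0.18 and -0.26, but EBPL was called without luteal phase replicate 1 (adjusted p = 0.0130) or follicular phase replicate 1 (0.0404). The call for CRB1 was lost without luteal phase replicate 4 (adjusted p = 0.0622), luteal phase replicate 5 (0.0548), follicular phase replicate 3 (0.0541) or follicular phase replicate 5 (0.0513), and the calls for EMP3 and RBMS3 were lost in 8 and 11 of 19 settings. In the contractile lists the closest were KCNMB1 (r = 0.884) and PPP1R12A (0.871). The median r was 0.513 for the stroma genes, -0.33 for the pericyte genes, -0.40 for the luteal cell genes and -0.04 for all candidates.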

How the data were processed

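Ribosomal RNA-depleted RNA of 10 goat ovaries (5 luteal, 5 follicular) was sequenced, and the authors used HISAT2 for alignment, StringTie for assembly and Cuffdiff for FPKM. The genome build is not given in the sources used here. The deposited values are FPKM per transcript and ovary, and the read depth of each single ovary is unknown. The annotated mRNA and lncRNA tables repeat values of the transcript table and were not used.

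FPKM of protein-coding transcripts were summed per symbol. Genes with at least 0.1 FPKM in 5 of 10 ovaries (15359) were compared on log2(FPKM + 0.1) with limma 3.58.1 in R 4.3.3 (trend on, two-sided, Benjamini-Hochberg over all genes). A fold change is on that scale and understates the change of low genes. Isoform shares were compared by exact permutation, and ratios were described with no test. The limma step was tested on simulated data. Ovaries were grouped by their phase label.

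The members and lists were chosen with earlier results of these data known. Of 227 listed symbols, 205 matched by symbol and 2 by RefSeq gene ID. Named were all members, from each list up to 2 called genes with the largest change in each direction among those with a mean of at least 1 FPKM, the 10 genes most like the members over the ovaries, and the relatives. Other genes named in the text (CALD1, SRF, MKL1, MYH10, SGCA, NLRP5, DCN, PDGFRA, OGN, COL1A2, PPP1R12A, TNNI3, MYBPC2, NOTCH3, CLDN5, AIF1, the striated genes near 0, MYL9, RGS5 and PDGFRB) were chosen after their values were seen. The alternatives tried were a pseudocount of 1 or 0.01, a filter of 0.5 FPKM or none, alignment of the ovary medians, quantile normalization, TPM, no trend, a replicate block, and each ovary left out.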

Additional observations from a re-analysis of the deposited data

Results flagged for a closer look

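In 4 of 198 groups of 5 ovaries, 1 ovary stood far from the others, its gap to the nearest being more than 0.71 of the group's range, and chance alone gives about 5% of groups. The log2 ratio of DES to VIM was -4.17 in follicular phase replicate 2, where the other follicular phase ovaries lay between -5.35 and -5.13. XM_013964021.2 held 11.4% of the MYBPC1 FPKM in luteal phase replicate 2 and 100% in the other luteal phase ovaries, at summed MYBPC1 levels of at most 0.195 FPKM. It held 2.95% in follicular phase replicate 3 and at least 97.9% in the other follicular phase ovaries. TNNI3, a troponin of heart muscle, was at 38.7 FPKM in luteal phase replicate 1 and between 15.8 and 19.1 in the other luteal phase ovaries.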

How the results depend on the processing

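With MYBPC1 set aside, 160 of 171 fits of the other 9 genes under the alternatives kept their call and 11 lost it, all of them for DES and MYLK, and none reversed. MYBPC1 could not be tested with the filter of 0.5 FPKM. The number of the 9 genes called ranged from 7 to 9 when each ovary was left out, that of the wider contractile genes from 46 to 55, and that of all genes from 5443 to 6981. For the other 68 genes, 1247 of 1292 fits gave the same call, 35 lost it, 10 gained it and none reversed. Replicate numbers are shared between the phases, and the labels do not say whether they mark pairs. Same-numbered ovaries correlated by 0.0258 to 0.199, all above 0, with 2 of 5 pairs over 0.1. The other combinations correlated by -0.245 to 0.224, and 5 of 10 ovaries correlated best with their own number. Whether the numbers mark pairs is thus not known, and the main fit did not take them as pairs. With the replicate block 9 of the 9 genes and 7020 of all genes were called, where the main fit called 6711 of all genes. With 5 pairs the blocked test of the isoform shares cannot give a p below 0.0625, so it could not have made a call. The depth of each single ovary is unknown, so the counting error of low genes such as MYBPC1 could not be given.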

Other observations

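The remaining marker lists describe the tissue around the smooth muscle genes. Of 8 luteal cell genes 7 were called higher in the luteal phase and 1, PGR, lower, where 15.9% of all genes were called higher and 27.8% lower. Of 11 granulosa and theca genes 7 were called lower and 1, NR5A2, higher. Of 9 oocyte genes 6 were called lower, among them ZP3 (-1.24, limma adjusted p = 0.0152), and 1, KIT, higher. KIT was at 73.9 ± 17.2 FPKM in luteal ovaries and 11.9 ± 0.918 in follicular ovaries. No other oocyte gene had a phase mean above 9.20 (ZP3, follicular). Which cells carried KIT was not tested. NLRP5, 1 of the 6 called lower, was at most 0.235 FPKM in luteal ovaries and passed the filter through the follicular phase.
Of 6 blood and immune genes none was called by limma, and 1, AIF1, had an unadjusted p under 0.05. The count was 1 without luteal phase replicate 5 and without follicular phase replicate 5.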
